A study of Mus musculus with 3 samples.

Results

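Enzymes that clear reactive carbonyl compounds were followed here in mouse embryonic fibroblasts (MEF) exposed to n-butylidenephthalide (BP), a phthalide of the medicinal plant Angelica sinensis. The set is a list of gene names, and no measured value enters the rule, although the list was drawn up with earlier results of these data known. It held 10 genes, namely Akr1b3, Akr1b8, Aldh1a1, Aldh1a3, Aldh1a7, Aldh2, Aldh3a1, Cbr1, Cbr3 and Ephx1, out of 35451 genes on the array. They were read by 13 of 55681 probes, since Akr1b3, Aldh3a1 and Ephx1 each had 2 probes and the other 7 genes had 1 each.

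The cells were primary fibroblasts of the C57BL/6 strain, grown from mid-gestation embryos after the heads, legs and internal organs had been taken away. RNA of 3 samples was labelled with Cy3 and hybridised to 1-colour Agilent whole-genome arrays, 1 array per condition. The control is recorded without treatment in the labels, while the study's text names DMSO, the BP solvent, as the control. The other 2 samples came from cells given BP at 10 µg/ml (BP10) or 40 µg/ml (BP40), and the time in BP before RNA extraction is not given in the sources used here. No genotype beyond the strain was given, no allele or transgene was recorded for these cells, and whether the samples came from 1 batch of fibroblasts is not stated. With 1 array per condition there were no replicates, so no test was possible and every difference below is a difference between arrays, not between conditions.

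Aldehydes and reactive ketones form during lipid peroxidation, alcohol and sugar metabolism, and bind proteins and DNA. Cells remove them along a few routes: aldehyde dehydrogenases oxidise them to acids, aldo-keto reductases and carbonyl reductases reduce them to alcohols, and epoxide hydrolases add water to the reactive epoxides that arise from related chemistry. Part of the aldehyde dehydrogenase family also makes retinoic acid from retinal, and several of the reductases are known targets of the stress-responsive factor NRF2.

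Values are background-subtracted spot signals as the scanner software gave them, and log2 levels are log2 of that signal minus the log2 75th percentile of the same array. A level of 0 therefore lies at the brightness below which 75% of the gene spots of that array fell. Errors (±) are the scanner software's modelled error of a signal, carried to the log2 ratio. For bright spots this came to about 0.20 for any ratio, and it holds no spread between cultures. A difference was counted when it reached 2-fold, a log2 ratio of 1 or more in either direction, provided that the probe was well above background on 1 or both of the arrays compared. Where only 1 of them had such a signal, the ratio is given as a bound.

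Some of the probes described below are shown by their first 30 of 60 bases, 5′ to 3′, so that their values can be tied to a stretch of transcript. Probes of Akr1b3, Akr1b8, Aldh1a1 and Aldh1a7 are not shown. Coordinates are those of the array annotation in the mouse build mm9. Whether they fall in coding sequence or in a UTR was not analysed here. The Aldh2 probe spanned 554 bases of genome for 60 bases of probe, so its mapped stretch is interrupted. Capitals in the 2 Aldh3a1 probes mark the 23 bases that both shown stretches share.
Aldh1a3, chr7:73535785-73535844, minus strand: ggggattttgatcttaagttcagattgtgt
Aldh2, chr5:122022137-122022690, minus strand: cctcaggtggatgaaactcagtttaagaag
Cbr1, chr16:93610453-93610512, plus strand: gataaaaaagttgaaccatggtgaacccaa
Cbr3, chr16:93691120-93691179, plus strand: tctgcaaactcagtctgaacaattcgctgt
Aldh3a1 probe 1, chr11:61031857-61031916, plus strand: cctccccCCTCTTGTTCTGCTGTTTGCTGA
Aldh3a1 probe 2, chr11:61031864-61031920, plus strand: CCTCTTGTTCTGCTGTTTGCTGAgcacaga
Ephx1 probe 1, chr1:182919689-182919748, minus strand: tcgccccactgcatagctgtgttaagctac
Ephx1 probe 2, chr1:182924124-182924183, minus strand: tttcaagaaacatttattccctgacccctc

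The arrays differed as a whole. The share of probes well above background was 81.7% in the control, 68.3% at BP10 and 69.1% at BP40, and the median signal was 224, 145 and 123. All 3 arrays lay on 1 slide, but the BP10 and BP40 arrays shared a scan session and the control array was scanned apart, so an effect of BP against the control and one of the scan session cannot be told apart. The 9 E1A spike-in probes above background, which read RNA added in a set amount, had a median log2 ratio of -0.15 for BP10 against the control and 0.77 for BP40 against the control, from -0.69 to 0.99 in the latter. All 9 fibroblast markers examined were well above background on every array, with median log2 ratios to the control of -0.58 (BP10) and -0.66 (BP40). None passed 2-fold at BP10. At BP40 Col3a1 and Postn were 2-fold or more lower, at -1.22 and -1.03, where 9.00% of all genes were lower. All 9 had a mean log2 level above 0. Among genes of mean level 0 or above, 0.895% were 2-fold lower at BP40. The medians of such genes were -0.10 (BP10) and 0.06 (BP40). Markers of other cell types were partly detected. Above background on all 3 arrays were 2 of 5 hepatocyte markers (Afp and Serpina1a, not Alb, Apoa1 or Ttr). So were 3 of 5 epithelial markers (Krt5, Krt8 and Krt18) and 2 of 3 endothelial markers (Kdr and Pecam1). Cdh1, Epcam and Cdh5 were above background on no array. Among these, Krt5 was 2-fold lower at BP40, with levels of -1.12, -1.94 and -2.16, and Kdr had levels of 3.01, 2.66 and 3.05. Detected on every array were also 3 of 4 adipocyte, 2 of 4 skeletal muscle and 0 of 2 corneal epithelial markers, none past 2-fold. All 5 macrophage markers were detected on every array, with median ratios of -0.30 and -0.18 and none past 2-fold. The part of all these markers in the results was not tested. In these bulk RNA samples, fewer cells of a type and less RNA per cell cannot be told apart.

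Of the 13 probes, 12 were well above background on all 3 arrays. The exception was the second Aldh3a1 probe, which was not well above background on the BP40 array. None of the 66 spots of these genes was saturated or marked as an outlier. The mean log2 level was 0 or above for 7 of the 10 genes, as it was for 10949 of the 35451 genes on the array.

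**Figure D1:**
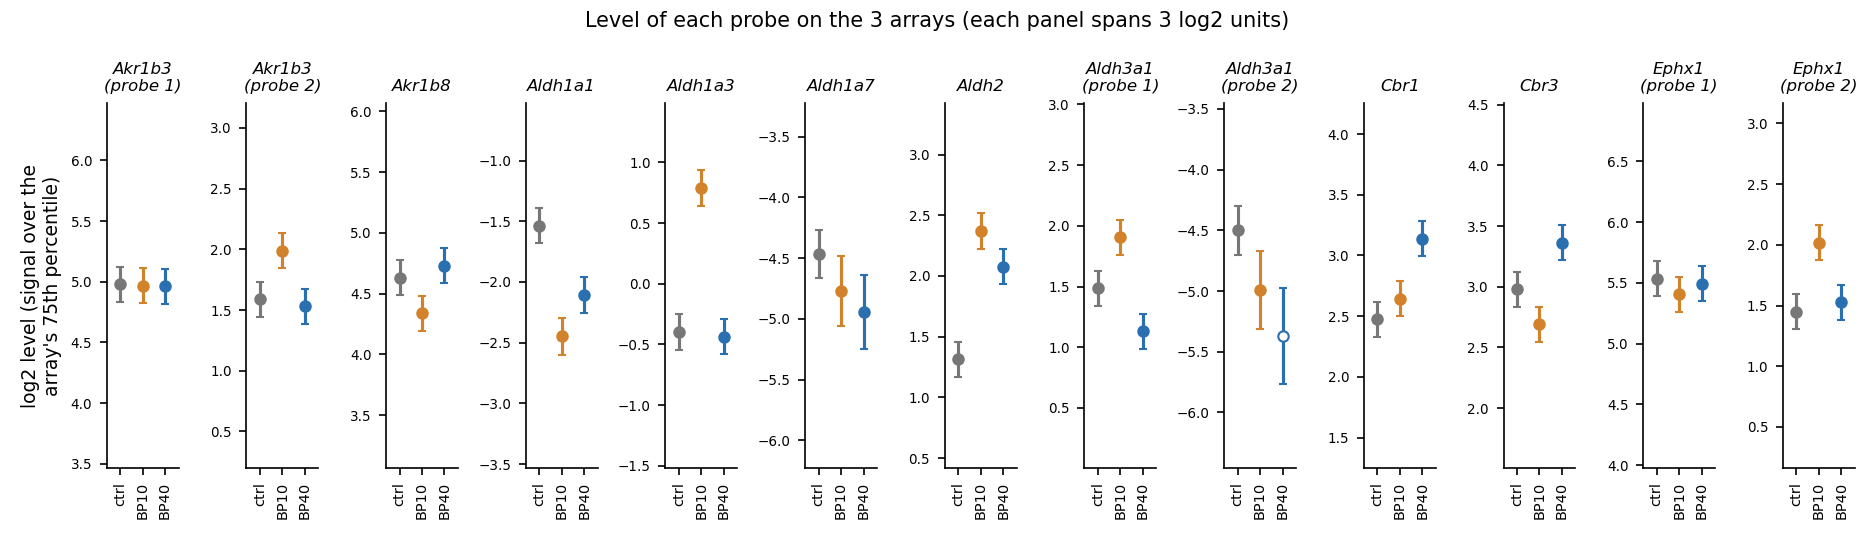
Level of each probe (log2 signal minus the array's 75th percentile, vertical axis) on the control, BP10 and BP40 arrays. Points are single arrays, error bars the scanner software's error, and the open circle a probe not well above background. Each panel has its own range of the same height, so positions compare within a panel only. Aldh1a3 stands higher on the BP10 array alone, at 0.79 against -0.40 and -0.44, and Aldh2 is higher on both BP arrays.

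At 10 µg/ml BP, 2 of the 10 genes were 2-fold or more higher than in the control and none was 2-fold lower. Both were aldehyde dehydrogenases, Aldh1a3 at 2.28-fold and Aldh2 at 2.08-fold. Over all genes, 13.0% passed 2-fold in this comparison, 2.68% higher and 10.3% lower. Dim genes took most of those calls: 2.20% of the genes with a mean level of 0 or above were past 2-fold, against 17.8% of the genes below it. The median ratio lay at -0.07 for the 10 genes, at -0.23 for all genes and at -0.10 for genes with a mean level of 0 or above. Without scaling between the arrays Aldh1a3 and Aldh2 were at 0.87 and 0.74, neither past 2-fold. On that scale 1 gene passed on the lower side, Aldh1a1 at -1.22, while 19.8% of all genes passed in either direction. With normexp background correction Aldh2 was at 0.97. Scaled on the spike-ins it was at 0.98 when the median E1A level of each array was matched, which subtracts 0.07, and at 1.20 when the median probe ratio of -0.15 was subtracted.

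At 40 µg/ml BP none of the 10 genes was 2-fold away from the control, while 11.6% of all genes were, 2.59% higher and 9.00% lower. Aldh2 at 1.70-fold and Cbr1 at 1.58-fold were the most raised, and Aldh1a1 the most lowered, at 1.48-fold. The 10 genes had a median ratio of -0.03, against -0.11 for all genes and 0.06 for genes with a mean level of 0 or above. This comparison depended most on the scale: when the median E1A level of each array was matched, which subtracts 0.99, 6 of the 10 genes were 2-fold or more lower, and 48.4% of all genes passed. When the median E1A probe ratio of 0.77 was subtracted instead, an alternative chosen after seeing the data, 3 of the 10 genes were 2-fold or more lower, Aldh1a1, Aldh1a7 and Aldh3a1, and 34.6% of all genes passed. Aldh2 was at -0.23 and -0.01 and Cbr1 at -0.32 and -0.11 on these 2 scales.

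Between the doses, 1 gene passed 2-fold. Aldh1a3 was 2.34-fold lower at BP40 than at BP10, in a comparison where 3.65% of all genes passed, 1.88% higher and 1.77% lower. These 2 arrays were scanned together. Cbr3, at 1.59-fold, was the most raised at BP40 relative to BP10. The median of the 10 genes was 0.04, that of all genes 0.06 and that of genes with a mean level of 0 or above 0.15.

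**Figure D2:**
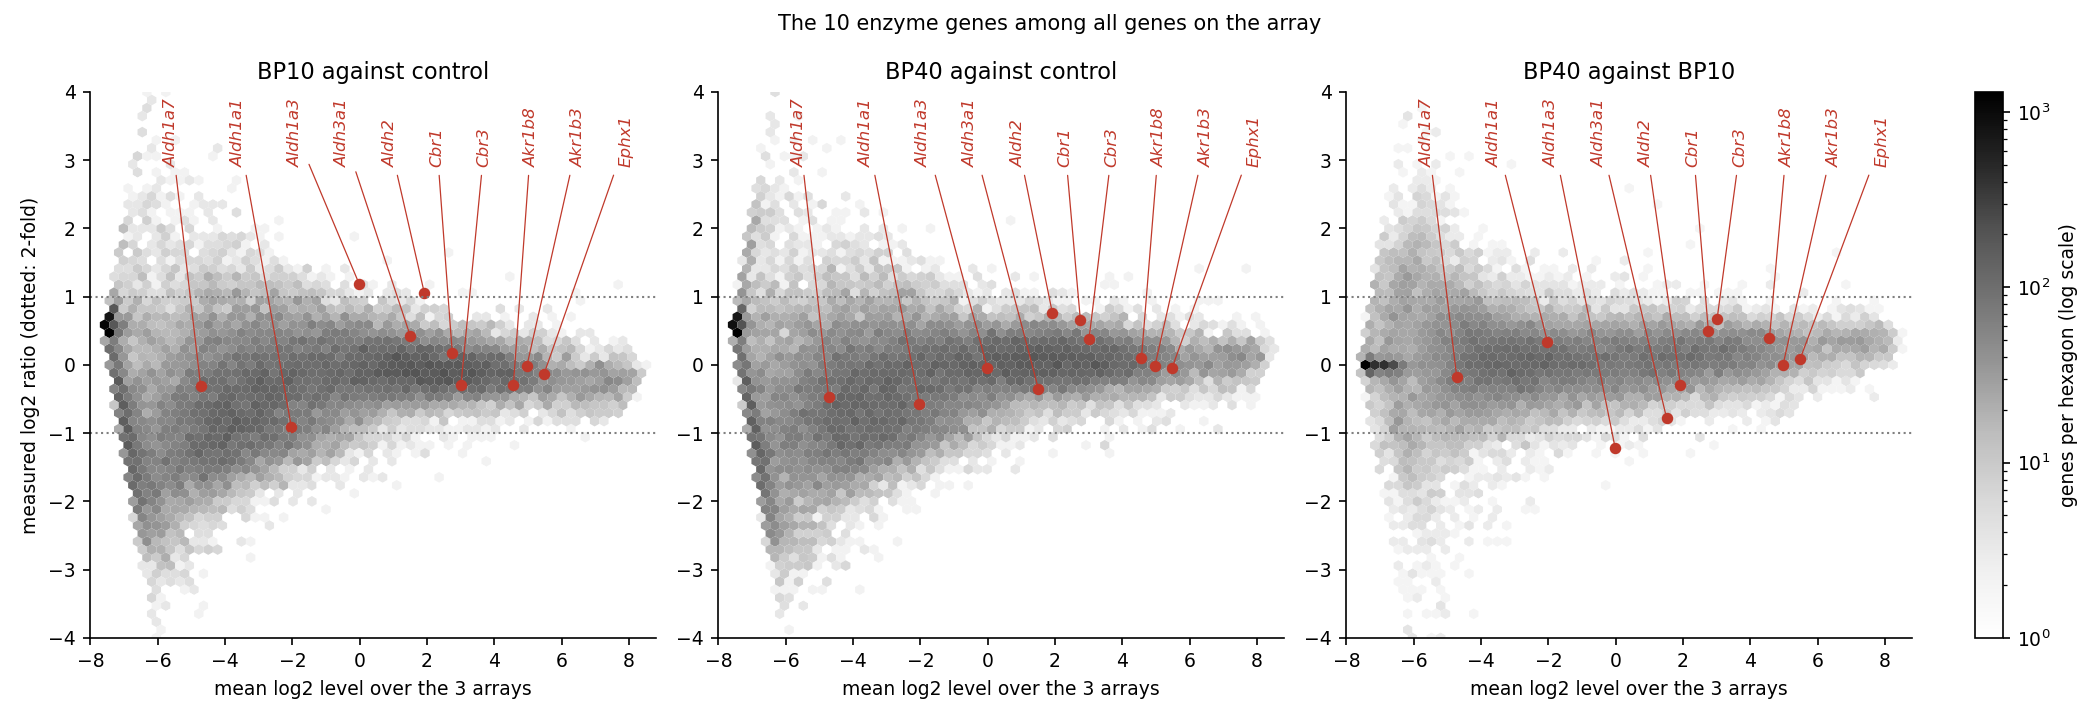
Log2 ratio (vertical axis) against the mean log2 level over the 3 arrays (horizontal axis) for all genes, as grey hexagons shaded by their number, with the 10 enzyme genes in red and 2-fold dotted (ratios beyond 4 are outside the axis). Aldh1a3 and Aldh2 lie at the upper edge of the genes of like brightness at BP10, and Aldh1a3 at the lower edge for BP40 against BP10.

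Spread among genes grew as levels fell, so each gene was also placed among the genes on its own side of level 0. Among genes of level 0 or above, the central 90% lay between -0.67 and 0.51 for BP10 against the control and between -0.56 and 0.60 for BP40. Aldh2 lay above that range at both doses, and Cbr1 above it at BP40. Aldh1a3, with a mean level of -0.01, was counted with the dimmer genes, whose central 90% ran from -1.92 to 1.01 at BP10, and its ratio of 1.19 was above that too. For BP40 against BP10, where the range of the brighter genes was -0.47 to 0.67, Aldh3a1 lay below, Cbr3 lay above by under 0.01, and Aldh1a3 was below the dimmer genes' range of -1.08 to 1.25. Thus 8, 8 and 7 of the 10 genes fell inside the range for their side of level 0 in the 3 comparisons. By construction 10% of genes lie outside. Each side is broad, so Aldh1a3 and Aldh1a7, with mean levels of -0.01 and -4.73, were set against the same range.

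Aldh2 encodes the mitochondrial aldehyde dehydrogenase that oxidises acetaldehyde and also acts on the lipid peroxidation product 4-hydroxynonenal. Its probe gave signals of 4340 in the control, 7244 at BP10 and 5125 at BP40, or log2 levels of 1.32, 2.37 and 2.08. The control was the lowest array and BP10 the highest. The log2 ratio to the control was 1.05 ± 0.20 at BP10 and 0.76 ± 0.20 at BP40, and BP40 against BP10 was -0.29 ± 0.20. Aldh2 and Cbr1 were the only genes of the set with a ratio above 0 at both doses under the 75th percentile scale, in 2 comparisons that share the control array.

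Aldh1a1, Aldh1a3 and Aldh1a7 belong to the cytosolic ALDH1A subfamily, in which Aldh1a1 and Aldh1a3 oxidise retinal to retinoic acid and Aldh1a7 is a close rodent relative of Aldh1a1. The Aldh1a3 probe had signals of 1324, 2421 and 898 on the control, BP10 and BP40 arrays, or levels of -0.40, 0.79 and -0.44. The BP10 array alone was high. Its log2 ratio to the control was 1.19 ± 0.20 at BP10 and -0.04 ± 0.20 at BP40, and BP40 against BP10 was -1.22 ± 0.20. Under the alternatives tried, the BP10 ratio ran from 0.87 to 1.33 and the ratio between the doses from -2.14 to -1.13, so the latter stayed past 2-fold in each.

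The Aldh1a1 probe read 601 on the control array, 257 at BP10 and 282 at BP40, or levels of -1.54, -2.45 and -2.10. Here the control was the highest array and the 2 BP arrays lay near each other. Aldh1a1 was 1.88-fold lower at BP10, a log2 ratio of -0.91 ± 0.21, and 1.48-fold lower at BP40, a log2 ratio of -0.57, with BP40 against BP10 at 0.34. Aldh1a1 thus differed in sign from Aldh1a3 at BP10, although both act on retinal. When the median ratio of equally bright probes was subtracted, the Aldh1a1 ratios were -0.62 and -0.32, since dim genes as a class were lower on both BP arrays.

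Aldh1a7 was dim on every array, with signals of 79.0, 51.3 and 39.5 and levels of -4.46, -4.77 and -4.94. Its ratios to the control were -0.31 ± 0.35 and -0.48 ± 0.36, close to the size of their error at both doses. At BP10 the same ratio became 0.41 after the brightness subtraction and 0.27 with quantile normalization, so its sign depended on the scale.

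Aldh3a1, known as a corneal and stomach enzyme that oxidises medium-chain and aromatic aldehydes and as a gene induced through the aryl hydrocarbon receptor (AHR), was read by 2 probes. Probe 1 gave signals of 4888, 5253 and 2660 on the control, BP10 and BP40 arrays, or levels of 1.49, 1.91 and 1.13. The BP40 array was the low one. Its ratios were 0.42 ± 0.20 at BP10, -0.36 ± 0.20 at BP40 and -0.77 ± 0.20 between the doses.

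Probe 2 of Aldh3a1 overlaps probe 1 by 53 identical bases, shifted by 7, as the capitals above show in part. It nevertheless gave signals of 77.0 and 44.0 on the control and BP10 arrays and 29.3 on the BP40 array, where it was not well above background. Its ratio at BP10 was -0.49 ± 0.38, opposite in sign to that of probe 1, and at BP40 it was lower by a bound of -0.55. Probe 1 stood for the gene because it was above background on more arrays. With the median of both probes the BP10 ratio of Aldh3a1 was -0.04, while both BP40 ratios kept their sign, at -0.61 against the control and -0.58 against BP10.

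Cbr1 and Cbr3 encode cytosolic short-chain carbonyl reductases that reduce quinones and ketones, among them prostaglandins and anthracyclines. Cbr1 had signals of 9698, 8755 and 10697, or levels of 2.48, 2.64 and 3.14, with the BP40 array the highest. Its log2 ratio was 0.17 at BP10, within its error of 0.20, 0.66 at BP40 and 0.50 between the doses. Cbr3 had signals of 13753, 9043 and 12482, or levels of 2.98, 2.69 and 3.36, with BP10 the lowest array and BP40 the highest.

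The Cbr3 log2 ratios were -0.29 ± 0.20 at BP10, 0.38 ± 0.20 at BP40 and 0.67 ± 0.20 between the doses. Both carbonyl reductases were therefore higher at BP40 than at BP10, by 0.50 and 0.67. Their direction between the doses was turned by both E1A scales: with the median levels matched, Cbr1 was at -0.42 and Cbr3 at -0.24. Without scaling Cbr3 was also at -0.14 in BP40 against the control.

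**Figure D3:**
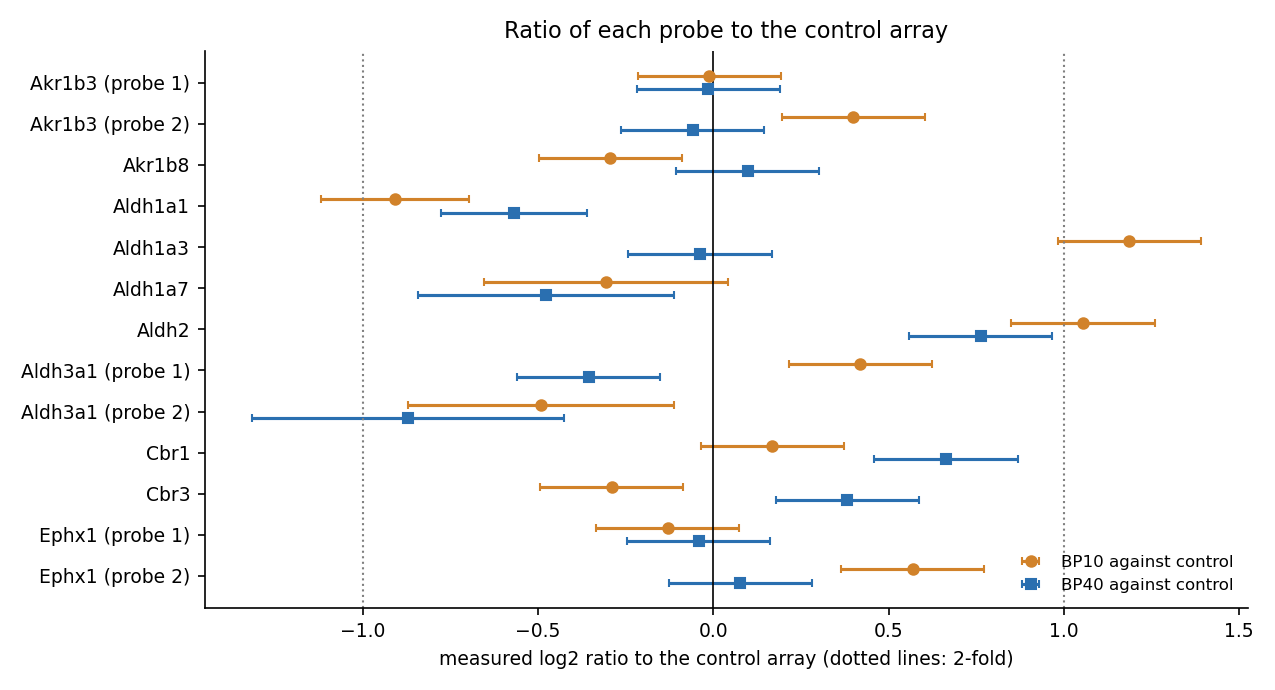
Log2 ratio to the control array of each probe at BP10 (circles) and BP40 (squares), with the scanner software's error as bars and 2-fold dotted. Aldh1a3 and Aldh2 pass the upper line at BP10, at 1.19 and 1.05, no probe passes either line at BP40, and the second probes of Akr1b3 and Ephx1 lie above the first at BP10.

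Akr1b3 is the mouse aldose reductase, the first enzyme of the polyol pathway, and Akr1b8 is a related reductase of aldehydes and retinal first described as growth factor-induced in fibroblasts. Akr1b3 probe 1 had levels of 4.98, 4.97 and 4.96 on the control, BP10 and BP40 arrays, from signals of 54943, 43797 and 37884, so the 3 arrays were alike on this scale. Probe 2 had levels of 1.59, 1.99 and 1.53, and only its BP10 value stood apart, by 0.40 ± 0.20. Probe 1, the brighter, stood for the gene, with ratios of -0.01 at both doses.

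Akr1b8 had signals of 43231, 28354 and 32226, or levels of 4.63, 4.34 and 4.73. It was the only gene of the set printed more than 1 time, on 10 spots per array, and its spots had an SD of 0.11, 0.04 and 0.05 on the log2 scale. The ratios were -0.29 at BP10, 0.10 at BP40 and 0.39 between the doses. The first and the third exceeded the SD between spots, which covers the array surface and not the culture.

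Ephx1 encodes the microsomal epoxide hydrolase, which opens epoxides of drugs and polycyclic hydrocarbons at the endoplasmic reticulum. Probe 1 had signals of 80900, 59404 and 54724, or levels of 5.54, 5.41 and 5.49, and its ratios of -0.13, -0.04 and 0.09 lay inside their error of 0.20. Probe 2 had signals of 4764, 5681 and 3498, or levels of 1.45, 2.02 and 1.53, and was high on the BP10 array, by 0.57 ± 0.20. The gene value came from probe 1, so Akr1b3 and Ephx1 were the 2 genes of the set that stayed within 0.15 of the control at both doses.

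The genes did not move as one block. Relative to the control, 2 were above 0 at both doses (Aldh2 and Cbr1), 4 were below 0 at both (Akr1b3, Aldh1a1, Aldh1a7 and Ephx1), 2 were above at BP10 and below at BP40 (Aldh1a3 and Aldh3a1), and 2 were below at BP10 and above at BP40 (Akr1b8 and Cbr3). The ratio exceeded the median SD between 2 probes of a gene for 5, 6 and 7 of the 10 genes in the 3 comparisons. That SD was 0.29 at BP10, 0.22 at BP40 and 0.21 between the doses, over 4731 genes. Passing it was common among all genes, although their exact share was not computed. Lower and upper quartiles of all genes were -0.78 and 0.18 at BP10 and -0.70 and 0.27 at BP40. Between the doses these quartiles were -0.17 and 0.36.

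The part of a transcript that a probe reads moved with the ratio at BP10. Over 3054 transcripts with 2 probes above background on all arrays, the upstream probe's log2 ratio minus the downstream probe's had a median of 0.21 for BP10 against the control and was above 0 in 67.9% of them. The median was 0.08 for BP40 against the control and -0.14 for BP40 against BP10. In the 923 transcripts whose probes start 300 to 1000 bases apart, these medians were 0.30, 0.08 and -0.22.

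The 2 genes of the set with probes that far apart had the sign of these medians at BP10 and between the doses. At BP40 against the control Ephx1 did and Akr1b3 did not. Akr1b3, with probes 722 bases apart, had differences of 0.41, -0.04 and -0.46, and Ephx1, with probes 772 bases apart, had 0.70, 0.12 and -0.58. In both, the upstream probe was the one that was higher at BP10. It was also the dimmer, with mean levels of 1.70 against 4.97 (Akr1b3) and 1.67 against 5.48 (Ephx1). Position and brightness therefore cannot be told apart in these 2 pairs. The Aldh1a3 probe starts at base 3334 of its transcript and the Aldh2 probe at base 1426, and as each had 1 probe, the part of probe position in their BP10 values was not tested.

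**Figure D4:**
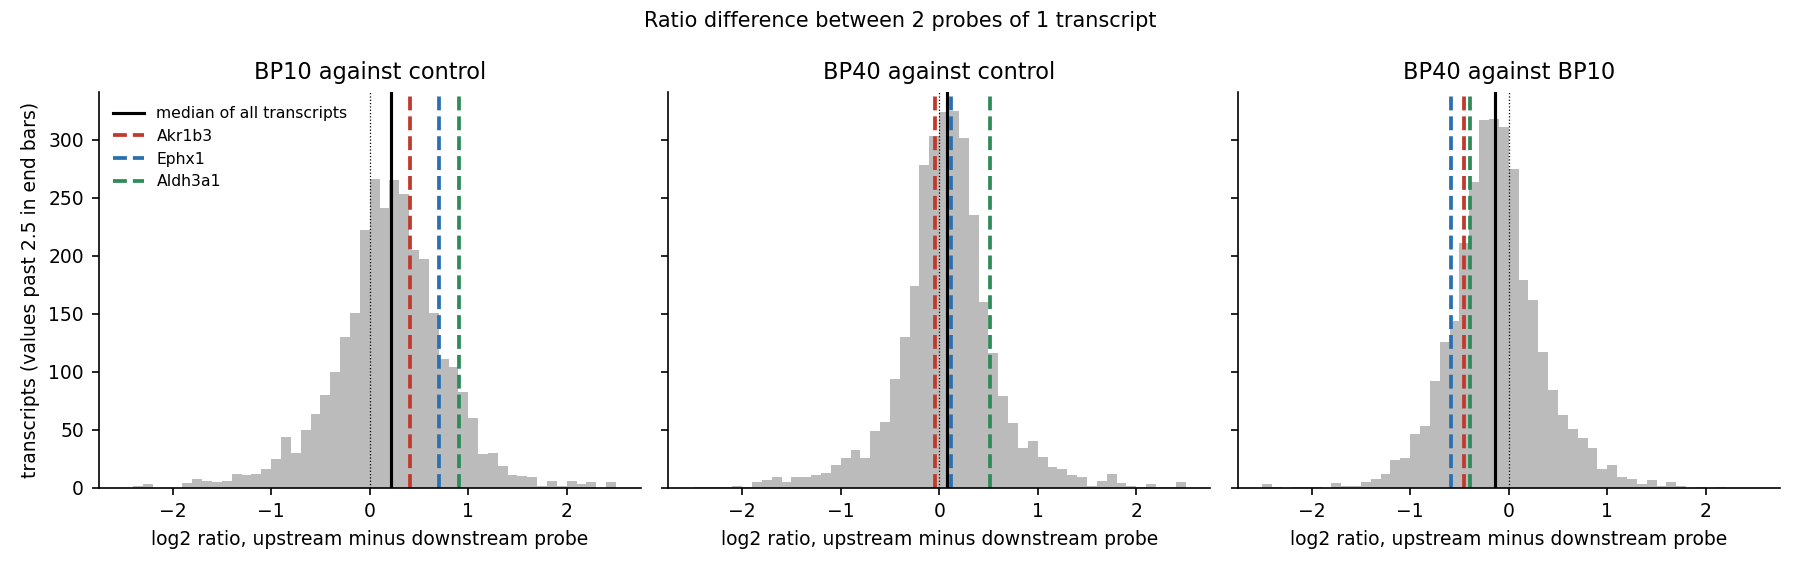
Upstream minus downstream probe, difference in log2 ratio, for transcripts with 2 probes, over all such transcripts as grey bars (number per bar, with their median as a black line) and with Akr1b3, Ephx1 and Aldh3a1 as dashed lines. The Aldh3a1 pair starts only 7 bases apart, with 1 probe not well above background at BP40. Akr1b3 and Ephx1 lie at 0.41 and 0.70 for BP10 against the control and at -0.46 and -0.58 for BP40 against BP10.

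Several of the genes are chromosomal neighbours. The nearest probes of Akr1b3 and Akr1b8 lay 64.4 kb apart on chromosome 6, those of Aldh1a1 and Aldh1a7 49.7 kb apart on chromosome 19, and those of Cbr1 and Cbr3 80.6 kb apart on chromosome 16. At BP40 against BP10 the neighbours Cbr1 and Cbr3 were both higher, at 0.50 and 0.67, whereas Aldh1a1 was at 0.34 and Aldh1a7 at -0.17. Akr1b3 was at -0.002 and Akr1b8 at 0.39. Genes with a mean level of 0 or above had a median of 0.15 in that comparison.

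Promoter windows, from 250 bases before to 50 after a gene's start, were taken from RefSeq on build GRCm38.p6 for 6 of the 10 genes, in 7 windows. The letters TGACNNNGC, the core of the antioxidant response element through which NRF2 acts, were searched on both strands and occurred in none of the 7, against 12.4% of 32851 promoter windows. The letters GCGTG, the core of the element bound by AHR, occurred 1 time in Akr1b8 and 2 times in Cbr1, against 32.4% of all windows with at least 1. A match is a description of the sequence only. The 3 stretches are shown with the core in capitals, which reads as its reverse complement where it lies on the opposite strand.
Akr1b8, chr6:34354108-34354136: ggaggggtctggGCGTGgcgcttgcagta
Cbr1 upstream, chr16:93607782-93607810: ccccccaccagcCACGCcccccgtaggga
Cbr1 at the start, chr16:93607818-93607846: taaactgcgcatGCGTGctaggtgcgaca

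Relatives of these enzymes were counted from whole gene lists. Of 57 other genes for aldehyde dehydrogenases, aldo-keto reductases, carbonyl and retinal reductases, epoxide hydrolases, alcohol dehydrogenases, glyoxalases and alkenal reductases, 1 was 2-fold higher and 5 were 2-fold lower at BP10, and 2 were higher and 4 lower at BP40. Their median log2 ratios were -0.06 and 0.12, against -0.23 and -0.11 for all genes. The shares of all genes past 2-fold were 2.68% higher and 10.3% lower at BP10, and 2.59% and 9.00% at BP40. Among genes with a mean level of 0 or above, 2.20% and 1.75% passed in either direction at the 2 doses. The 12 other carbonyl and retinal reductases had no gene past 2-fold at either dose, nor had the 5 glyoxalases and alkenal reductases, where Ptgr1, a reductase of unsaturated aldehydes and ketones, was at -0.01 and 0.68.

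Among the 15 other aldehyde dehydrogenases, Aldh1a2, the retinal dehydrogenase that supplies most retinoic acid in the embryo, was lower at both doses. Its levels were -0.39, -1.25 and -1.92 on the control, BP10 and BP40 arrays, and its ratios -0.86 and -1.52. At BP10, Aldh1l1, which oxidises formyltetrahydrofolate, was at -1.22 and Aldh8a1 at -1.01. Aldh3b2 was above background on the BP40 array alone and was higher there by a bound of 1.60, while its second probe was dim on every array and read 0.12.

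Among the 15 other aldo-keto reductases, 4 were above background on no array. Akr7a5, a reductase of succinic semialdehyde and aflatoxin dialdehyde, had levels of 0.33, 0.94 and 1.42, rising in the order of dose, and its ratio of 1.09 at BP40 passed 2-fold. At BP10, Akr1c20 was at 1.17 and Akr1c18, a progesterone-metabolising enzyme, at -1.57. Among the 4 other epoxide hydrolases, Ephx3 had levels of 1.13, -0.79 and -0.44, with the control highest, and ratios of -1.92 and -1.57. Ephx2, the soluble epoxide hydrolase, was at 0.59 and 0.24, and Lta4h, the leukotriene A4 hydrolase, at -0.19 and 0.15. Of the 6 alcohol dehydrogenases, Adh4 was lower at both doses, by a bound of -1.04 and at -1.01, and Adh7, which oxidises retinol, was 2-fold lower at BP40.

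The 16 genes of retinoic acid synthesis, transport and breakdown had 0 higher and 2 lower at each dose. They include Aldh1a2, and none of the 10 genes of the set. Their median ratios were -0.14 and -0.17. Among all genes, 10.3% were 2-fold lower at BP10 and 9.00% at BP40, with medians of -0.23 and -0.11. Crabp2, which carries retinoic acid to the nucleus, had levels of 3.46, 2.18 and 2.73, with ratios of -1.28 and -0.73. Stra6, the membrane receptor for retinol uptake, was at -1.27 at BP10 and lower by a bound of -1.60 at BP40. Other genes of the list lay above 0 at BP10 without passing 2-fold, among them Dhrs3 at 0.997, Cyp26b1 at 0.76 and Rarb at 0.68, which were chosen after their values were seen.

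**Figure D5:**
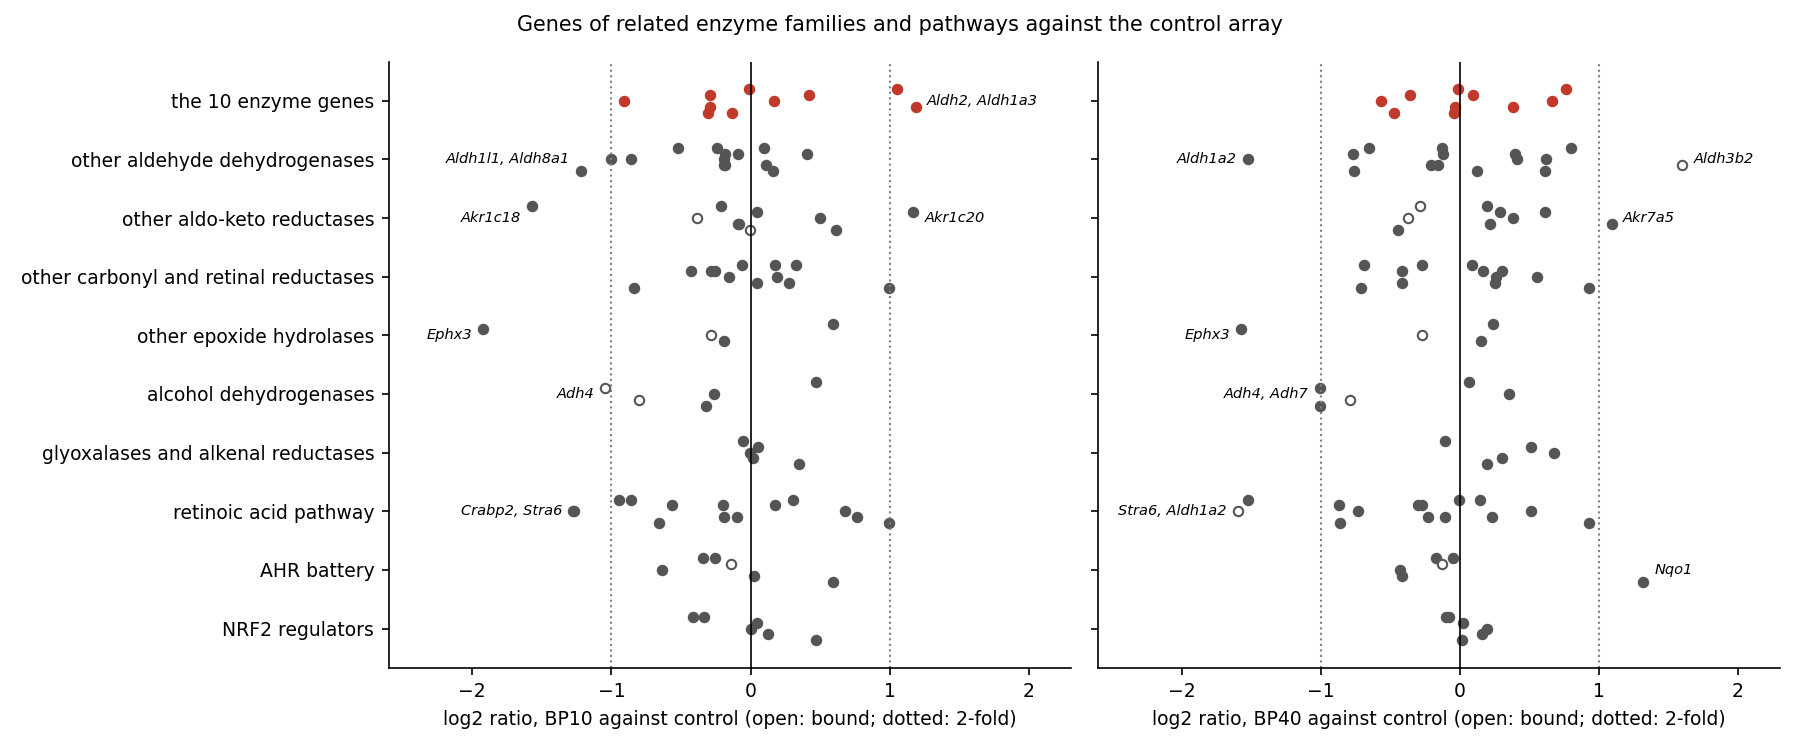
Log2 ratio to the control array at BP10 (left) and BP40 (right) for each gene of the related families and pathways, with the 10 enzyme genes in red, bounds as open circles, 2-fold dotted and genes past it named. Ephx3 lies lowest at BP10, at -1.92, and the enzyme genes Aldh1a3 and Aldh2 are named above 2-fold at that dose.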

How the data were processed

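RNA of 1 control, 1 BP10 and 1 BP40 MEF sample was hybridised to Agilent 1-colour arrays. The authors deposited scanner output of Feature Extraction 10.5.1.1, in which the processed signal is a linear intensity, background-subtracted and corrected for spatial trends on its own array, with no scaling from array to array. The value table deposited for the series held the same intensity values in 100% of 62976 spots, within a tolerance of 0.0001. Here log2 intensity minus the 75th percentile over gene spots of each array was used, spots of a probe were averaged, and each gene took the value of the probe detected on most arrays, then of the brightest. RefSeq accessions named 26425 probes. Where a probe was well above background on 1 of the 2 arrays, the dim side was put at the lowest signal that counted as well above background there, or at its own signal if higher, which gives a bound. No p-values were computed, as each condition had 1 array, and this number limits the precision. Named were all 10 genes, up to 4 genes past 2-fold with the largest ratios at BP40 from each other list, and any gene of a list of 6 or fewer. The members and lists were chosen with earlier results of these data known. Alternatives were quantile and normexp (offset 50) processing, other scales, filters and folds. Software was Python 3.11.15, numpy 2.4.6, pandas 2.3.3, R 4.3.3 and limma 3.58.1.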

Additional observations from a re-analysis of the deposited data

How the results depend on the processing

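Of 66 recomputed counts and medians of the 10 genes, 46 stayed close to the reported value, as did 194 of 270 ratios of single genes. These totals include the series table, which holds the same intensities, so its 30 single ratios could not differ. Quantile normalization, the series table and the 75th percentile over probes above background on all arrays left every count as it was and moved no median beyond its tolerance. Without scaling between arrays, 1 gene passed 2-fold at BP10 and 1 at BP40, where 19.8% and 23.9% of all genes passed. The medians were -0.39 and -0.55, against -0.54 and -0.64 for all genes. Scaled on the median level of the E1A spike-in probes, 1 gene passed at BP10, 6 at BP40 and 4 between the doses. Of all genes, 14.2%, 48.4% and 25.1% passed. The medians were then -1.01 at BP40 and -0.87 between the doses, with -1.10 and -0.85 for all genes. Another scale, chosen after seeing the data, was the median E1A probe ratio to the control. There 2 genes passed at BP10, 3 at BP40 and 4 between the doses, against 11.0%, 34.6% and 25.2% of all genes. The medians in the last 2 comparisons were -0.80 and -0.87, with -0.89 and -0.86 for all genes. With normexp, 1 gene passed at BP10, where 4.06% of all genes did. The median between the doses was -0.23 after subtracting the median ratio at the same brightness and -0.19 with each gene's probes combined by their median. At 1.5-fold, 2 genes passed at BP40 and 3 between the doses, against 26.6% and 13.3% of all genes. At 3-fold 0 genes passed at BP10 and 0 between the doses, against 2.68% and 1.13% of all genes. Scaling shifts single ratios past their error: Aldh2 at BP40 ran from -0.23 to 0.76 and Cbr3 from -0.61 to 0.39. No paired analysis was possible because only 1 array stood for a condition. Leaving out a replicate was not possible either. Dim probes such as those of Aldh1a7 and the second Aldh3a1 probe are limited by signal over background, and the causes of these shifts were not tested.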

Other observations

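Gene lists tied to the 2 regulators known to drive several of these enzymes were also read. The lists are unlike: that of AHR includes target genes. That of NRF2 holds only NRF2 itself and genes that act with it or against it. The level of NRF2 target genes as a list was not tested here. Of 8 genes of the AHR battery, none passed 2-fold at BP10 and 1 was higher at BP40, Nqo1, which encodes a quinone reductase. Its levels were 0.09, 0.68 and 1.40 on the control, BP10 and BP40 arrays, so the control was the lowest and BP40 the highest, with ratios of 0.59 and 1.32. Cyp1a1 and Cyp1a2, the defining cytochromes of that battery, were above background on no array. The list's median ratios were -0.16 and -0.13, against -0.23 and -0.11 for all genes. Nfe2l2, which encodes NRF2, was at -0.41 and -0.08, and its inhibitor Keap1 at 0.05 and 0.02. The NRF2 partners Mafg, Maff and Mafk were at 0.13, 0.01 and 0.47 at BP10 and at 0.16, 0.20 and 0.01 at BP40, and the competitor Bach1 was at -0.34 and -0.10. None of these 6 genes passed 2-fold at either dose. Of all genes, 13.0% did at BP10 and 11.6% at BP40. All 6 had a mean level above 0, and among genes of level 0 or above only 2.20% and 1.75% passed.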
